A study of Mus musculus with 96 samples.

Results

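The keratin genes Krt4, Krt7, Krt8, Krt18, Krt19 and Krt23 and the surface marker gene Prom1 were followed in mouse liver across phenobarbital treatment and tissue preservation. They were taken by name from the deposited table of gene counts and are 7 of its 47373 genes. The set was chosen by the measured difference between phenobarbital and control, so their values in that contrast are given below as a description, without a test. Comparisons between preservation states, the differences of the phenobarbital effect between states and the ratio of Krt8 to Krt18 were tested.

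Keratins are the intermediate filament proteins of epithelial cells, and a filament needs 1 type I and 1 type II chain. In the liver, hepatocytes carry the type II keratin Krt8 and the type I keratin Krt18, whereas bile duct cells add the type II keratin Krt7 and the type I keratin Krt19. Krt4 is a type II keratin of stratified linings such as the oesophagus, where its partner is Krt13, and Krt23 is a type I keratin known from stressed liver and from ductular cells. Prom1 encodes prominin 1 (CD133), a glycoprotein of membrane protrusions that is used as a marker of bile duct and progenitor cells.

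The 96 libraries came from 12 male B6C3F1 mice, 10 to 11 weeks old, of which 6 had drunk water with 600 ppm phenobarbital for 7 days and 6 had drunk water with 0 ppm. Phenobarbital, a barbiturate, activates the nuclear receptor CAR in hepatocytes and induces drug metabolism. Liver of mixed lobes from each mouse had been flash frozen and was then split, so that every animal gave 1 library to each of 8 states and each of the 16 groups held 6 libraries. Frozen portions were the reference. Other portions were embedded in paraffin after 3 months in 70% ethanol, after 18 hours in 10% formalin and then ethanol (18-hour formalin), or after 3 months in 10% formalin (3-month formalin). Material of the 3-month formalin state was worked up in 4 more ways: RNA heated in TAE buffer at 70 °C for 30 minutes (TAE-heated), incubation at 55 °C for 18 hours without catalyst (heat only), and the same incubation with an organocatalyst, followed by isolation with an AllPrep or a PureLink kit (catalyst AllPrep and catalyst PureLink).

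Library totals ran from 1264563 to 18442730 counts with a median of 11913138, and the shallowest was the 3-month formalin library of control 8A. Frozen totals, from 14527636 to 18442730, did not overlap the totals of the 3-month formalin libraries, which reached 10217453. The treatment labels were checked with Cyp2b10, the classic CAR target: in frozen liver it was at 0.198 ± 0.138 CPM in controls and 2279 ± 411 CPM in treated animals (SD, n = 6 each). CPM are counts scaled to a common library size (per 1e6 counts, with TMM factors over all libraries). In bulk liver, fewer cells of a type and less RNA per cell cannot be told apart.

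All 7 genes are annotated as protein coding on GRCm38. The 4 members of chromosome 15 are Krt7 at chr15:101411043-101430313 on the plus strand, Krt4 at chr15:101918535-101924735 on the minus strand, Krt8 at chr15:101996698-102004482 on the minus strand and Krt18 at chr15:102028180-102032027 on the plus strand. Krt8 and Krt18 therefore lie back to back with 23697 bases between them. Krt23 at chr11:99477974-99493137 and Krt19 at chr11:100140810-100148665 lie on the minus strand of chromosome 11, and Prom1 spans chr5:43993620-44102032 on the minus strand. The gene identifiers are ENSMUSG00000059668 for Krt4, ENSMUSG00000023039 for Krt7, ENSMUSG00000049382 for Krt8, ENSMUSG00000023043 for Krt18, ENSMUSG00000020911 for Krt19, ENSMUSG00000006777 for Krt23 and ENSMUSG00000029086 for Prom1.

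The promoters of Krt8 and Krt18, the keratin pair of hepatocytes, are shown as a description. They are the stretches of the RefSeq promoter windows (build GRCm38.p6) that lie upstream of both the RefSeq start and the annotated gene, chr15:102004483-102004592 for Krt8 on the minus strand and chr15:102027966-102028179 for Krt18 on the plus strand. Both are written 5′ to 3′ along the gene's strand. Capitals mark the letters AGGTCA, the half-site that nuclear receptors bind.
Krt8: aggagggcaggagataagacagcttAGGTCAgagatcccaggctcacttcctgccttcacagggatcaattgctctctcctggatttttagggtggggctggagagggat
Krt18: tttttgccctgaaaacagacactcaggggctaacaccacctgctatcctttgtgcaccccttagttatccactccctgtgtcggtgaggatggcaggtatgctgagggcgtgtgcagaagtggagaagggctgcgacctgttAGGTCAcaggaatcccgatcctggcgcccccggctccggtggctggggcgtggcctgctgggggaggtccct
AGGTCA occurred once in each of these windows, beginning 225 bases before the RefSeq start of Krt8 and 108 bases before that of Krt18. Windows from 250 bases before to 50 bases after a start were found for 5 of the 7 members, with 2 windows for Prom1. Searched on both strands, AGGTCA was also present once in the window of Krt7, 15 bases after the start, and in none of those of Krt23 and Prom1. It occurred in 16.3% of all 32851 promoter windows. The TATA box TATAAA was found on both strands of the Krt8 window, overlapping itself 3 bases and 1 base before the start, and in no other window of a member, against 13.6% of all windows. The GC box GGGCGG was present 4 times in the Krt7 window and once in the first Prom1 window, and occurs in 35.7% of all windows. These matches describe letters in a window and not binding, and no link between them and any change in counts was tested. The portions of an animal were split from the same frozen liver, so the preservation states differ in handling after the liver was taken.

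Set per kilobase of annotated exon, so that genes can be compared, the hepatocyte pair was far above the other members in frozen control liver. Krt18 stood at 123 ± 16.1 and Krt8 at 55.3 ± 8.87 CPM per kilobase (SD, n = 6). Krt19 was at 0.329 ± 0.0933, Krt23 at 0.321 ± 0.316, Prom1 at 0.128 ± 0.0406, Krt7 at 0.0856 ± 0.0249 and Krt4 at 0.0230 ± 0.0178 CPM per kilobase. The ranges of Krt18 and Krt8 did not overlap each other or any other member, while each neighbouring pair from Krt19 through Krt23 and Prom1 to Krt7 overlapped, and Krt4 lay below all of them. In treated frozen liver Krt4 moved from the last to the third place, at 6.10 ± 2.10 CPM per kilobase, and the places of Krt18 and Krt8 stayed the first and the second at 170 ± 27.8 and 81.0 ± 20.0 CPM per kilobase. All 7 members were found in the count table. In the comparisons of phenobarbital with control, Krt4, Krt8 and Krt18 passed the filter on low counts in 8 of 8 states and Prom1 in 7, whereas Krt7, Krt19 and Krt23 passed in 0.

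Krt4, the type II keratin of stratified epithelia, was almost absent from control liver and present in every treated library. Over the 48 control libraries it had 33 counts in all, with 24 libraries at 0 and at most 3 counts in any library. Over the 48 treated libraries it had 5812 counts, 172 times as many per count sequenced, with a 95% interval of 123 to 251 that covers counting error only. In frozen liver, controls 8A and 21C had 0 counts of Krt4 and controls 8C, 8D, 82B and 90C had 1 each, at most 0.0758 CPM. Treated frozen livers had 7.14 CPM of Krt4 in animal 75C, 7.96 in 20D, 13.5 in 18B, 15.6 in 80B, 15.9 in 20B and 18.0 in 18D. Animals 20D and 75C were low and the other 4 were high, and the lowest treated animal was far above the highest control.

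The same picture of Krt4 held in each preserved state. Treated libraries ran from 6.55 to 15.7 CPM in ethanol, with a median of 11.8, and from 4.03 to 15.1 CPM in 18-hour formalin, with a median of 10.8. In 3-month formalin they ran from 4.12 to 12.7 CPM around 7.10, and in TAE-heated RNA from 4.62 to 12.7 CPM around 7.37. Heat-only libraries ran from 5.99 to 13.4 CPM around 10.2, catalyst AllPrep libraries from 5.57 to 17.2 CPM around 10.8 and catalyst PureLink libraries from 5.20 to 13.8 CPM around 10.1. The highest control library of any state had 0.237 CPM, so treated and control ranges of Krt4 did not overlap in any of the 8 states. Of all genes tested, 4.13% had a treated range wholly above the control range in frozen, 3.31% in ethanol, 2.79% in 18-hour formalin, 1.45% in 3-month formalin, 2.05% in TAE-heated, 2.26% in heat-only, 2.25% in catalyst AllPrep and 2.21% in catalyst PureLink portions. Fitted log2 fold changes of Krt4 lay between 6.45 ± 0.43 (SE) in catalyst PureLink and 7.997 ± 0.56 in 18-hour formalin. Since control libraries held 0 to 3 counts, these fitted values depend on the count added by the fit. The ratio of summed counts in frozen liver was 266, with a 95% counting interval of 104 to 980.

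Krt4 belongs to a cluster of type II keratin genes, and markers of the stratified epithelia that express it were at or near 0. The 8 markers Krt5, Krt13, Krt14, Krt15, Trp63, Dsg3, Ivl and Sprr3 summed to 0 to 0.145 CPM per control animal and 0.0209 to 0.131 CPM per treated animal, over the 8 libraries of each, and 0 of the 8 could be tested. Krt13, the partner of Krt4, had 3 counts in the 96 libraries. Of the 48 keratin genes outside the members, 26 had no count and 18 had at most 20 counts in all. Among the 4 that had more than 200 was Krt79, named here after its values were seen. It lies at chr15:101929332-101940324 on the same strand as Krt4, 4596 bases from it. Krt79 had 7 counts in the 48 control libraries and 448 in the treated ones, or 0.0121 ± 0.0121 CPM and 0.760 ± 0.533 CPM per animal over 8 libraries (SD, n = 6 each). In these sums treated animals had at least 0.347 CPM of Krt79 and controls at most 0.0312 CPM. Of 18478 genes kept for such sums, 3.15% had a treated range wholly above the control range. In single libraries the Krt79 ranges overlapped in frozen liver, with treated from 0.0724 CPM and controls up to 0.0758 CPM. They also overlapped in 3-month formalin, with treated from 0 and controls up to 0.105 CPM, and not in the other states. Krt78, the next gene along, had 1 count in controls and 2 in treated animals.

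Prom1 was higher in treated liver on average, and most of that difference came from 2 animals. Frozen controls had 0.620 CPM of Prom1 in animal 8C, 0.756 in 8D, 0.767 in 8A, 0.881 in 21C, 1.03 in 82B and 1.44 in 90C. Treated frozen livers had 0.796 CPM in animal 20D, 1.05 in 75C, 1.49 in 18B, 2.15 in 18D, 7.16 in 80B and 8.11 in 20B. Only 20B and 80B stood clearly apart, and 20D and 75C lay within the control range. The same 2 animals were the highest of the 12 in each of the 8 states. Prom1 ran from 5.86 to 8.11 CPM in the 8 libraries of animal 20B and from 4.64 to 7.16 CPM in those of 80B, while no library of another treated animal exceeded 3.09 CPM and no control library exceeded 2.24 CPM.

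**Figure D1:**
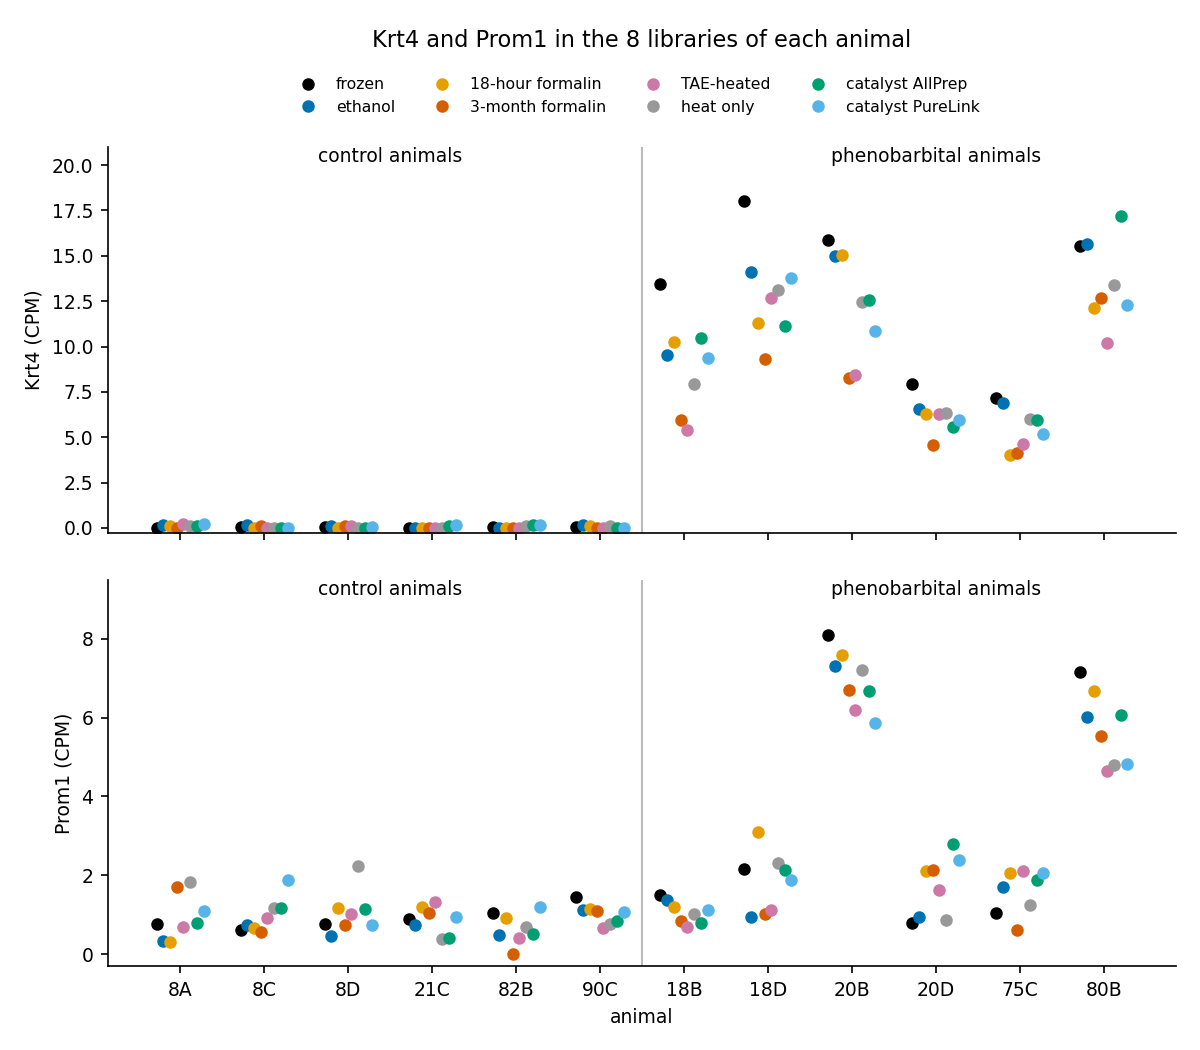
Krt4 (top) and Prom1 (bottom) in CPM on linear axes, with 1 point for each of the 8 libraries of an animal, coloured by preservation state, controls left of the line and phenobarbital animals right of it. Krt4 stays below 0.237 CPM in controls and above 4.03 CPM in treated animals. Prom1 is high in treated animals 20B and 80B in all 8 states and at most 3.09 CPM in the others.

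Summed over the 8 libraries of an animal, Prom1 was at 0.697 to 1.03 CPM in the 6 controls and at 1.09, 1.65, 1.67, 1.85, 5.79 and 6.95 CPM in treated animals 18B, 75C, 20D, 18D, 80B and 20B. At this pooled depth the 2 groups did not overlap, while in single libraries they overlapped in 8 of 8 states. Of 18478 genes kept for these sums, 3.15% had a treated range wholly above the control range. Fitted log2 fold changes of Prom1 were between 1.33 ± 0.54 (SE) in heat-only and 2.24 ± 0.58 in ethanol portions. Without animal 20B they fell by state to between 0.82 in heat-only and 1.77 in ethanol portions, the lowest value of each state when any 1 animal was left out. Prom1 shares 424 exon bases with the antisense gene Gm16401, which had 2 counts in control and 12 in treated libraries. How the counting treated strands is not given in the sources used here.

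The bile duct markers of the 2 animals with high Prom1 lay within the control range. The list of 14 bile duct genes, among them Epcam, Sox9 and Spp1, summed to 145 CPM in animal 20B and 153 CPM in 80B, against 106 to 138 CPM in the other treated animals and 103 to 179 CPM in controls. Within the treated group 80B and 20B were thus the highest on this list too. Other lists stood apart in the same 2 animals. The 7 Kupffer cell markers summed to 503 CPM in 20B and 460 CPM in 80B, against at most 334 CPM in the other treated animals and 370 CPM in controls. The other intermediate filament list summed to 90.3 and 96.6 CPM, against at most 79.3 CPM in any other animal. The keratin aggregate and stress list summed to 2841 and 3163 CPM, against at most 1698 CPM in any other animal. Of this list Lcn2 was at 1064 ± 1351 CPM and Nbr1 at 356 ± 4.36 CPM in frozen treated liver (SD, n = 6). The sum therefore does not show a rise across the list. The part of these list shifts in the Prom1, Krt8 and Krt18 values of 20B and 80B was not tested. Of the bile duct genes 9 could be tested in frozen liver and 0 rose or fell with phenobarbital by edgeR's quasi-likelihood test with Benjamini-Hochberg adjustment at 0.05, with a median log2 change of 0.01 against -0.01 over all genes. Spp1, which encodes osteopontin, was at 71.2 ± 34.8 CPM in frozen controls and 61.0 ± 40.0 CPM in treated liver (SD, n = 6 each). Krt79 was highest in the same animals as Prom1, with 1.57 CPM in 20B and 1.30 CPM in 80B against 0.347 to 0.474 CPM in the other treated animals. Among 13545 genes, those whose animal means deviated from their treatment mean most like Prom1 over the 12 animals were Nudc (r = 0.96), Tubb6 (r = 0.96) and Stmn1 (r = 0.95). Without 20B and 80B these correlations were 0.91, 0.84 and 0.82.

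Krt8 and Krt18, the keratin pair of hepatocytes, were moderately higher in treated liver. Frozen controls had 79.2 to 126 CPM of Krt8 with a median of 112, and treated frozen livers had 108 to 212 CPM with a median of 155. For Krt18 the frozen controls ran from 142 to 211 CPM with a median of 181, and the treated livers from 193 to 280 CPM with a median of 260. Treated animal 20D was the lowest of its group for both genes and lay within the control range, as did 18B for Krt18, and control 21C was the lowest of all. Treated and control ranges overlapped in 8 of 8 states for Krt8 and in 8 of 8 for Krt18. The fitted log2 difference of Krt8 was between 0.28 ± 0.22 (SE) in heat-only and 0.78 ± 0.19 in 18-hour formalin portions, and that of Krt18 between 0.23 ± 0.19 and 0.60 ± 0.15 in the same 2 states.

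Summed over the 8 libraries of an animal, Krt8 was at 64.4 ± 8.90 CPM in controls and 90.7 ± 19.5 CPM in treated animals, and Krt18 at 106 ± 15.1 and 139 ± 25.3 CPM (SD, n = 6 each). The highest treated animals were again 80B, with 119 CPM of Krt8 and 169 CPM of Krt18, and 20B, with 106 and 165 CPM. The pseudogene Krt8-ps, a processed copy of Krt8, was at 1.46 ± 0.223 and 2.11 ± 0.464 CPM, and reads could have been split between the 2 copies. Krt8-ps held 820 counts in control and 1221 in treated libraries, against 36259 and 52625 of Krt8.

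Counted by the 0.05 threshold of edgeR's quasi-likelihood test with Benjamini-Hochberg adjustment, which is a description here, Krt4 was past it in 8 of 8 states, Krt8 in 3 (frozen, 18-hour formalin and 3-month formalin), Krt18 in 2 (frozen and 18-hour formalin) and Prom1 in 4 of the 7 in which it passed the filter (ethanol, 18-hour formalin, catalyst AllPrep and catalyst PureLink). Each of these was higher in treated liver. Genes past the threshold and higher made up 5.89% of those tested in frozen liver, 4.82% in ethanol, 3.45% in 18-hour formalin, 1.66% in 3-month formalin, 2.35% in TAE-heated, 3.53% in heat-only, 3.12% in catalyst AllPrep and 3.21% in catalyst PureLink portions. Without 1 animal at a time, Krt4 was past the threshold in 12 of 12 fits in each state, while Krt8 in frozen liver was past it in 3 of 12 fits and Krt18 in 7 of 12. Prom1 in frozen liver missed the threshold and was past it in 3 of 12 such fits, and in 4 of 5 fits with other processing. In 18-hour formalin the fits without 1 animal passed 3 of 12 times for Krt8, 3 for Krt18 and 10 for Prom1, and Krt8 in 3-month formalin passed 2 of 12 times. For Prom1 they passed 5 of 12 times in ethanol, 12 of 12 in catalyst AllPrep and 4 of 12 in catalyst PureLink portions.

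**Figure D2:**
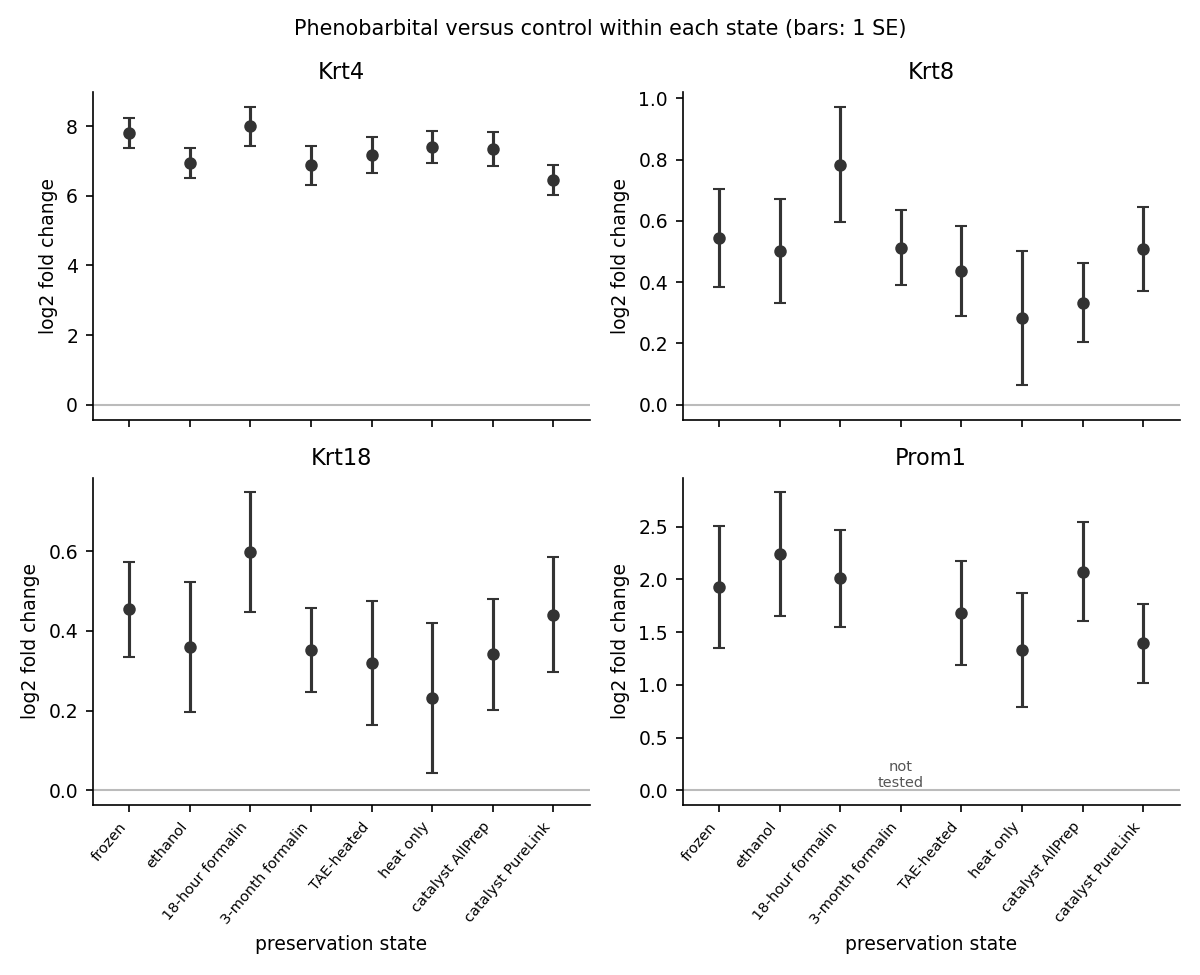
Fitted log2 fold changes of phenobarbital over control for Krt4, Krt8, Krt18 and Prom1 within each of the 8 preservation states, 6 libraries a group, with bars of 1 SE. Each panel has its own axis. Krt4 lies between 6.45 and 7.997 in all states, and Prom1 was not tested in 3-month formalin.

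Whether the difference with phenobarbital changed with preservation was tested as an interaction of each preserved state with frozen liver. This fit did not pair the libraries by animal. Of 37 such tests on members 0 passed edgeR's quasi-likelihood test with Benjamini-Hochberg adjustment, and 0 had an unadjusted p under 0.05, the lowest being 0.213. DESeq2 and a fit with the animal as a block also called 0 of the members. Over all genes 0% passed in each of the 7 interaction comparisons. For Krt4 the estimated interaction lay between -1.35 and 0.25, for Prom1 between -0.60 and 0.31, for Krt8 between -0.27 and 0.25 and for Krt18 between -0.23 and 0.15 on the log2 scale. Standard errors of the Krt4 interaction reached 1.48, those of Prom1 0.87 and those of Krt8 0.29, so differences of that order were not detectable in this unpaired fit. With the animal as a block they reached 1.30, 0.55 and 0.17. In the block fit the Krt8 interaction in 18-hour formalin was 0.21 ± 0.09 (SE, edgeR adjusted p = 0.76).

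The gene lists around the members were counted with phenobarbital in frozen liver by the same test. Of the keratin anchoring and desmosome list, whose products such as plectin and desmoplakin tie keratin filaments to junctions, 8 of 10 could be tested and 0 passed. Plec was at 243 ± 16.2 CPM in controls and 225 ± 25.4 CPM in treated liver, and Dsp at 155 ± 15.2 and 134 ± 20.9 CPM (SD, n = 6 each). Of the list of keratin aggregate and stress genes 2 of 9 tested rose, Ubb, a ubiquitin gene, by 0.43 ± 0.11 (SE) and Usp14, a deubiquitinase gene, by 0.22 ± 0.05 on the log2 scale, and 0 fell. Of the other intermediate filament genes 1 of 7 rose, vimentin (Vim) by 0.44 ± 0.12, and 0 fell. Of 8 hepatocyte markers 0 rose and 3 fell, Tat by 0.60 ± 0.15, Ahsg by 0.29 ± 0.08 and Hnf4a by 0.25 ± 0.06. Of 4 progenitor genes 1 fell, Lgr5 by 1.01 ± 0.25, and of 4 mesothelial genes 1 rose, Msln by 1.23 ± 0.34. Of the Kupffer cell, endothelial and stellate cell lists 0 of 7, 0 of 6 and 0 of 7 passed. Of all genes tested in frozen liver, 9.43% passed in either direction.

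Krt8 and Krt18 lost a large part of their counts in every formalin state. Over treated and control libraries together, Krt8 ran from 79.2 to 212 CPM in frozen liver with a median of 124, and from 20.3 to 47.1 CPM in 3-month formalin with a median of 35.5. For Krt18 the frozen libraries ran from 142 to 280 CPM with a median of 195, and the 3-month formalin libraries from 41.5 to 77.6 CPM with a median of 58.1. No 3-month formalin library reached the lowest frozen one for either gene. Each of the 12 animals was lower than its own frozen portion for both genes in all 6 formalin states, and 11 of 12 were lower in ethanol.

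With treatment as a covariate and 12 libraries a state, Krt8 fell by 1.92 ± 0.10 (SE) on the log2 scale from frozen to 3-month formalin (adjusted p = 3.2e-14, edgeR's quasi-likelihood test with Benjamini-Hochberg adjustment), or 3.80-fold. Krt18 fell by 1.80 ± 0.08 (adjusted p = 2.0e-15 by the same edgeR test), or 3.49-fold. A further fall was found for only 0.252% of the genes tested in the case of Krt8 and 0.364% in the case of Krt18, while 28.7% of all genes passed the threshold in the lower direction. After 18-hour formalin the falls were 0.84 ± 0.13 for Krt8 (edgeR adjusted p = 1.2e-05) and 0.83 ± 0.10 for Krt18 (edgeR adjusted p = 2.8e-07), and 20.6% of all genes were called lower.

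In ethanol, which fixes without aldehyde, Krt18 fell by 0.27 ± 0.10 on the log2 scale (adjusted p = 0.048, edgeR's quasi-likelihood test with Benjamini-Hochberg adjustment), and the change of Krt8, -0.16 ± 0.12, did not pass (edgeR adjusted p = 0.32). In that state 15.8% of all genes were called lower. The call of Krt18 was lost without the filter (edgeR adjusted p = 0.070), with library totals alone (0.14) and after thinning to the shallowest library (0.17). With the animal as a block both genes passed, Krt8 at -0.17 ± 0.04 (edgeR adjusted p = 3.1e-04), in a fit that called 27.1% of all genes lower. The RNA of frozen liver was isolated with other reagents than that of embedded liver, so isolation and preservation cannot be told apart in these comparisons.

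**Figure D3:**
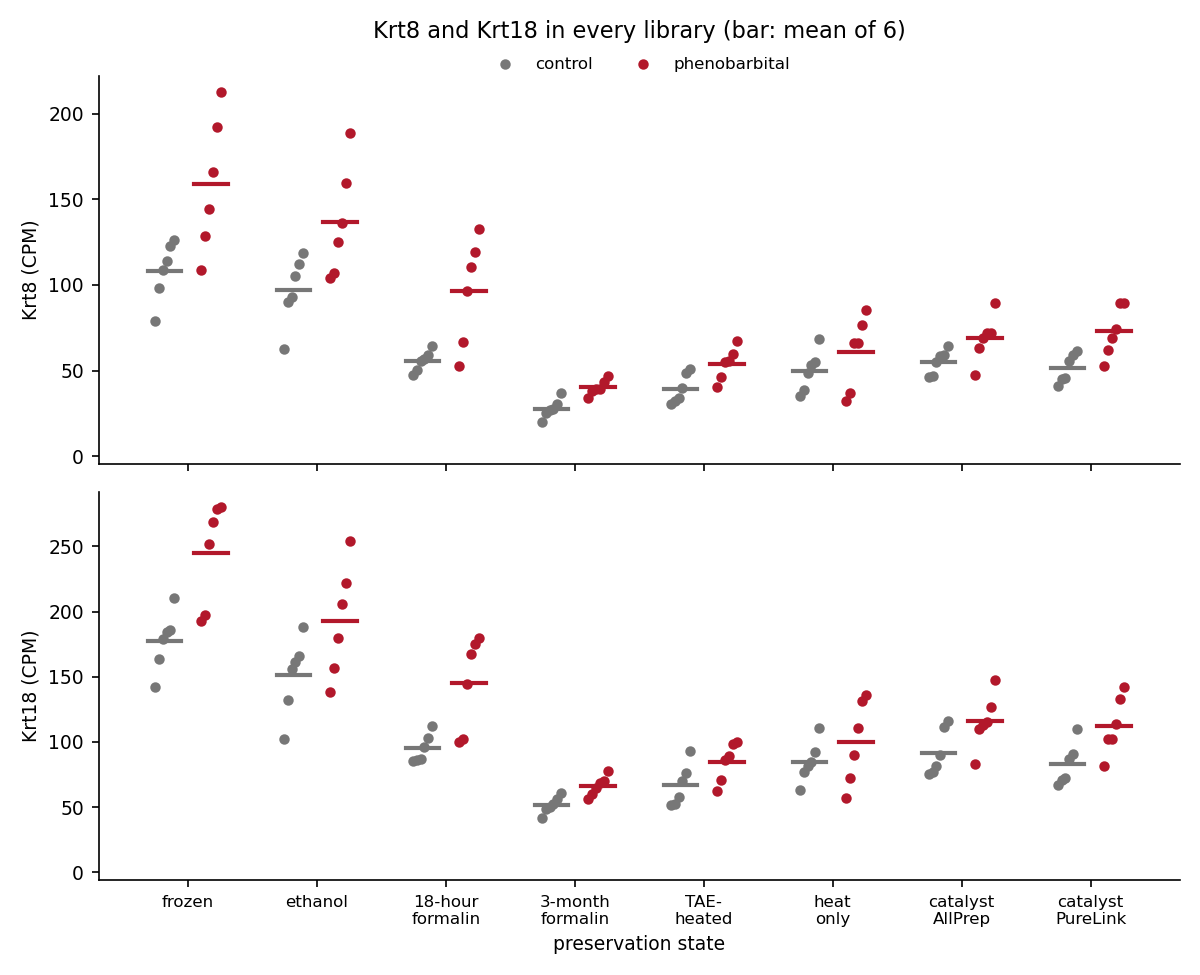
Krt8 (top) and Krt18 (bottom) in CPM on linear axes for every library, by preservation state, controls in grey and phenobarbital animals in red, with a short bar at the mean of each group of 6. Both genes are highest in frozen and ethanol portions and lowest in 3-month formalin, where no library exceeds 47.1 CPM of Krt8 or 77.6 CPM of Krt18.

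The 4 work-ups of 3-month formalin material gave back part of both genes. Medians over 12 libraries were 47.6 CPM of Krt8 in TAE-heated, 54.2 in heat-only, 61.2 in catalyst AllPrep and 60.1 in catalyst PureLink portions. For Krt18 they were 73.6, 87.4, 111 and 96.6 CPM in the same order. Against untreated 3-month formalin material, Krt8 rose by 0.45 ± 0.10 (SE), 0.71 ± 0.14, 0.86 ± 0.09 and 0.86 ± 0.09 on the log2 scale in that order, with adjusted p-values of 0.0018, 1.3e-04, 2.9e-08 and 8.7e-09 by edgeR's quasi-likelihood test with Benjamini-Hochberg adjustment. Krt18 rose by 0.36 ± 0.09, 0.66 ± 0.11, 0.82 ± 0.09 and 0.73 ± 0.09, with edgeR adjusted p-values of 0.0095, 4.4e-05, 4.3e-08 and 1.0e-07. Genes called higher made up 7.89%, 23.5%, 23.8% and 30.8% of those tested.

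Frozen levels were not reached by any work-up. Krt8 remained lower than in frozen liver by 1.49 ± 0.11 (SE) in TAE-heated, 1.27 ± 0.15 in heat-only, 1.07 ± 0.11 in catalyst AllPrep and 1.09 ± 0.11 in catalyst PureLink portions on the log2 scale. For Krt18 the falls were 1.45 ± 0.10, 1.20 ± 0.12, 1.00 ± 0.10 and 1.10 ± 0.10, and the largest edgeR adjusted p of these 8 was 6.6e-08. Genes called lower than frozen made up 27.4%, 28.6%, 22.6% and 27.7% of those tested in the same order. Catalyst AllPrep portions differed from heat-only ones by 0.17 ± 0.13 for Krt8 (edgeR adjusted p = 0.64) and 0.17 ± 0.12 for Krt18 (edgeR adjusted p = 0.60), and 0.891% of all genes passed in that comparison. With the animal as a block the Krt18 difference, 0.19 ± 0.05, passed (edgeR adjusted p = 0.021) and that of Krt8, 0.20 ± 0.07, did not (0.055), while 8.08% of all genes were called higher.

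Other genes of hepatocytes and of the filament system were counted in the same fits. In 3-month formalin 7 of 8 hepatocyte markers were lower than in frozen liver and 1 was higher, with a median of -0.64 against 0.03 over all genes, of which 31.8% were called higher and 28.7% lower. Of the 7 other intermediate filament genes tested there 1 fell and 0 rose, with a median of -0.22, and of 8 keratin anchoring genes 3 fell and 1 rose, with a median of -0.19. Of the 8 bile duct genes tested 5 rose and 2 fell, with a median of 0.52. The part of these shifts in the fall of Krt8 and Krt18 was not tested.

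In the 6 formalin states Krt4 and Prom1 had smaller estimated changes from frozen than the hepatocyte pair. Krt4 was lower than frozen by 0.74 ± 0.25 (SE) on the log2 scale in 3-month formalin (adjusted p = 0.013, edgeR's quasi-likelihood test with Benjamini-Hochberg adjustment) and by 0.69 ± 0.24 in TAE-heated RNA (edgeR adjusted p = 0.018), and its other 5 changes, from -0.42 to -0.14, did not pass. With the animal as a block Krt4 was also called lower in 18-hour formalin (-0.43 ± 0.10, edgeR adjusted p = 8.2e-04), heat-only (-0.40 ± 0.11, 0.0025), catalyst AllPrep (-0.29 ± 0.11, 0.023) and catalyst PureLink portions (-0.42 ± 0.10, 6.8e-04), in fits that called 29.7%, 33.4%, 28.6% and 33.5% of all genes lower. Against 3-month formalin, catalyst AllPrep portions were called higher in Krt4 with the block (0.47 ± 0.18, edgeR adjusted p = 0.029) and not without it (0.16). With library totals alone the TAE call of Krt4 was lost (edgeR adjusted p = 0.10). Prom1 was called in 0 of its 10 tested state comparisons by edgeR, with changes between -0.29 and 0.32, and standard errors of up to 0.44. With the animal as a block Prom1 was also called in 0 of 10, with changes from frozen between -0.27 ± 0.26 in 3-month formalin and 0.16 ± 0.15 in 18-hour formalin.

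**Figure D4:**
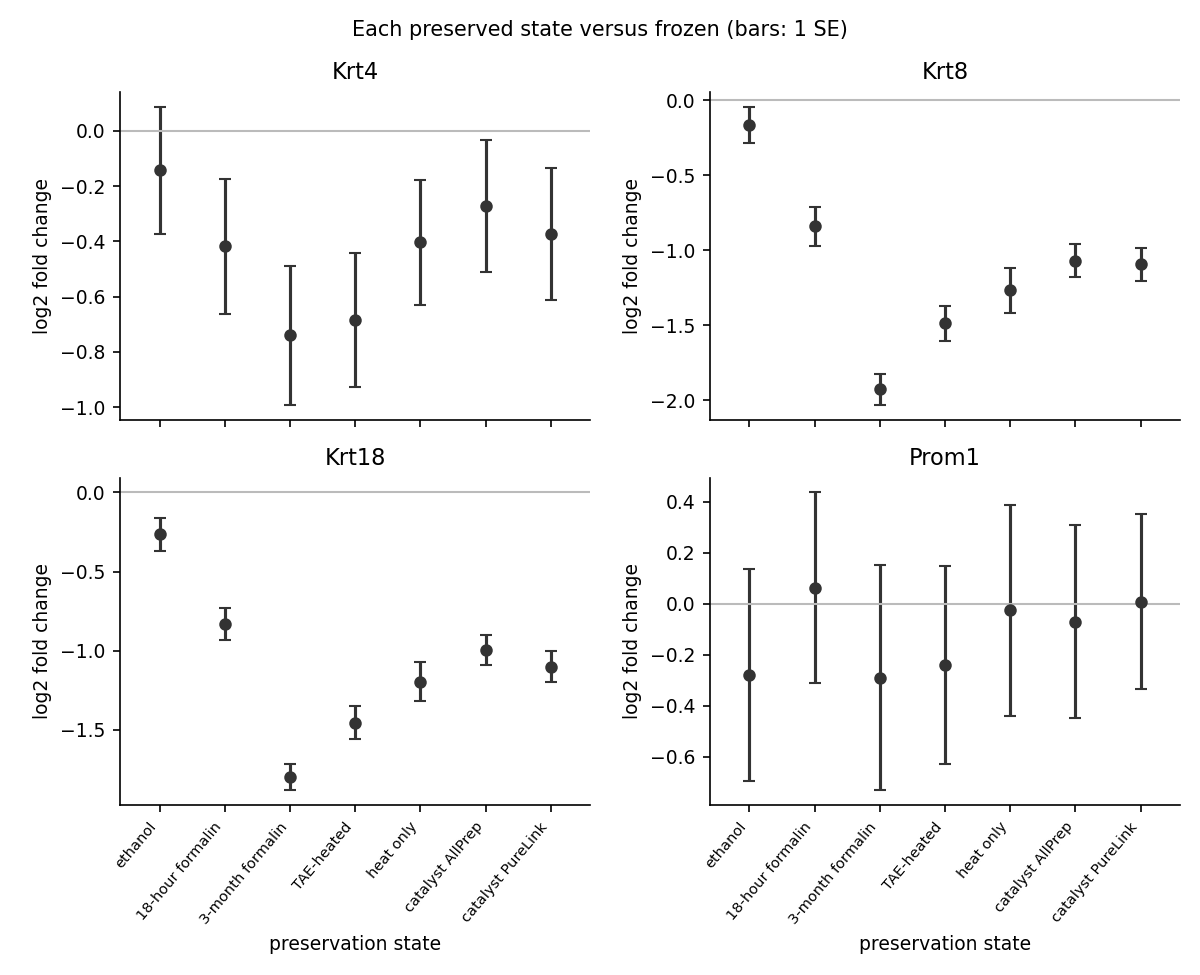
Fitted log2 fold changes of each preserved state over frozen liver for Krt4, Krt8, Krt18 and Prom1, 12 libraries a state with treatment as a covariate, with bars of 1 SE. Each panel has its own axis. Krt8 and Krt18 trace the same course, lowest at -1.92 and -1.80 in 3-month formalin, while Prom1 stays between -0.29 and 0.06.

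The ratio of Krt8 to Krt18, each per kilobase of exon, was close to constant. Its geometric mean over 12 frozen libraries was 0.457, with a range from 0.394 to 0.557. In ethanol the ratio was 0.494, higher than in the frozen portion of the same animal in 10 of 12 animals, by 0.11 ± 0.10 on the log2 scale (SD, n = 12; exact two-sided sign-change permutation test over animals p = 0.0044, adjusted over the 7 states 0.031). In the other 6 states the mean difference lay between -0.12 and 0.03 on the log2 scale and did not pass the exact permutation test, the lowest p being 0.14. Within 3-month formalin the ratio ranged from 0.306 to 0.515.

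The members differed in whether their values varied by state or by animal. On the log2 scale, with counts raised by 0.5, 85.4% of the sum of squares of Krt8 in controls and 76.8% in treated animals lay between states, and for Krt18 the shares were 84.4% and 79.6%. For Krt4 in treated animals 74.9% lay between animals and 16.7% between states, and for Prom1 in treated animals 83.2% lay between animals and 3.46% between states. For Krt7, Krt19 and Krt23 most lay in neither, from 50.5% to 78.1%, as it did for Krt4 (66.2%) and Prom1 (74.9%) in controls. Over the 12 animals, the deviation of Krt8 from its treatment mean was most like that of Krt18 among 13545 genes (r = 0.96, and 0.91 without the 2 animals farthest out), followed by Capns1 and E2f2 (r = 0.93 and 0.92). The closest to Krt18 after Krt8 were Impdh1 and Stambpl1 (r = 0.91 and 0.90). For Krt4 they were Swi5, Mapk7 and Robo1 (r = 0.87, 0.87 and 0.86). These correlations share libraries and depth and are given as a description.

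Krt7 and Krt19, the keratins of bile ducts, and Krt23 were near the limit of detection. In frozen controls Krt7 had 6 to 12 counts a library, Krt19 4 to 10 and Krt23 1 to 20. Krt7 was at 0.603 ± 0.175 CPM in frozen controls and 0.747 ± 0.196 CPM in treated liver, Krt19 at 0.609 ± 0.173 and 0.738 ± 0.125 CPM, and Krt23 at 0.502 ± 0.494 and 0.828 ± 0.322 CPM (SD, n = 6 each). Treated and control ranges of each overlapped in all 8 states. Over the 8 libraries of an animal Krt7 was at 0.494 ± 0.102 CPM in controls and 0.596 ± 0.0796 CPM in treated animals, and Krt19 at 0.512 ± 0.135 and 0.550 ± 0.0828 CPM. Krt23 was at 0.349 ± 0.257 and 0.422 ± 0.148 CPM, with control 21C highest of all 12 at 0.849 CPM. At these counts small differences were not detectable.

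**Figure D5:**
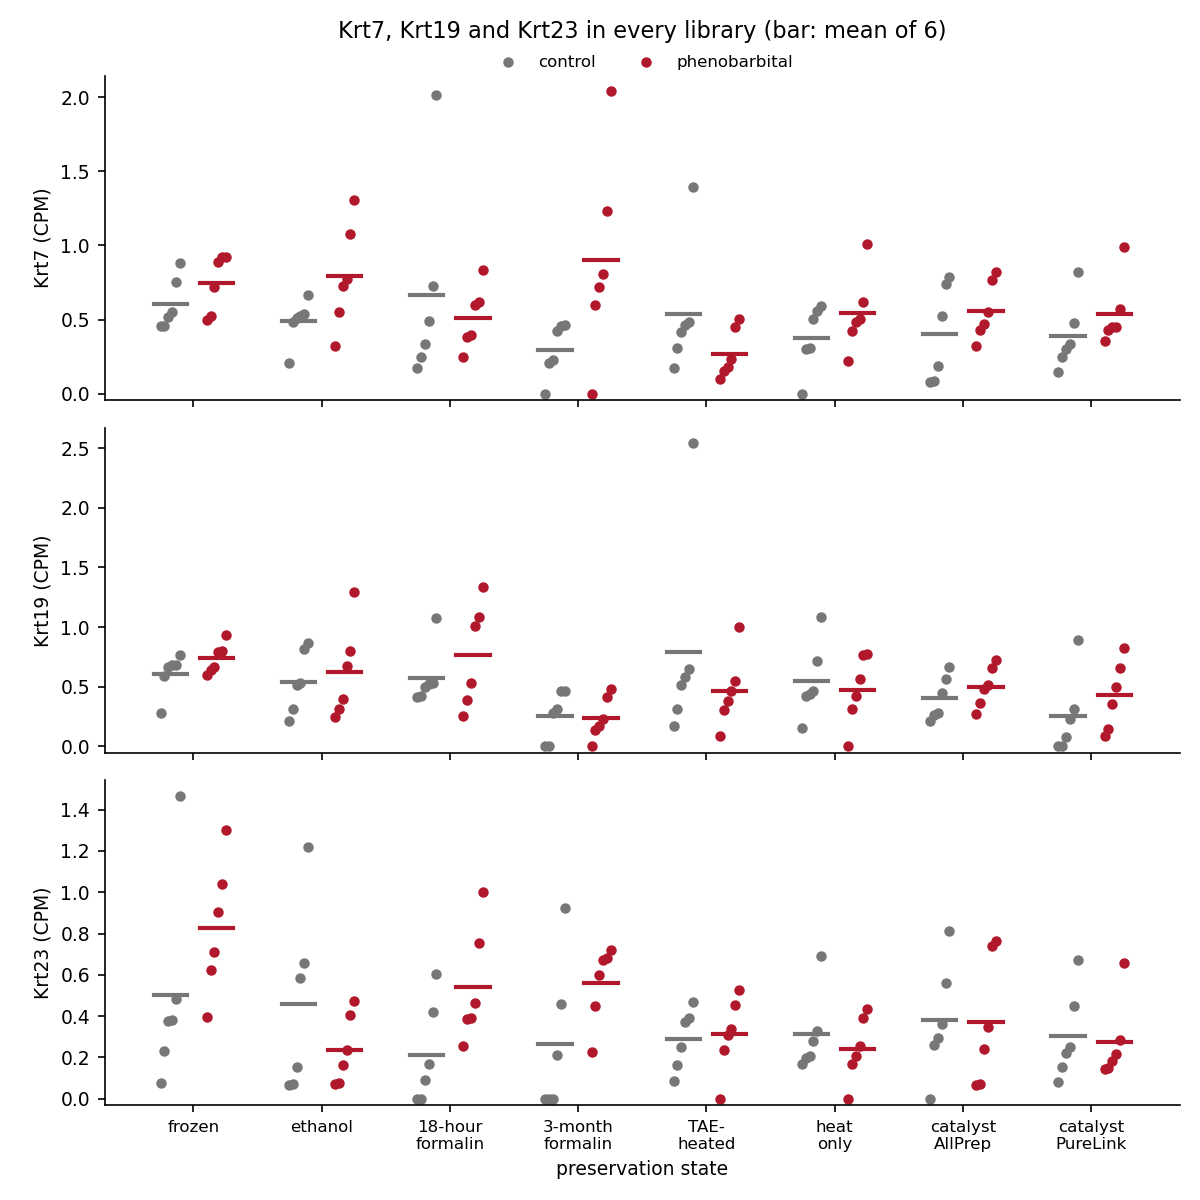
Krt7, Krt19 and Krt23 in CPM on linear axes for every library, by preservation state, controls in grey and phenobarbital animals in red, with a short bar at the mean of each group of 6. Grey and red points overlap in all 8 states, and single libraries such as the TAE-heated portion of control 82B, at 2.54 CPM of Krt19, stand above the rest.

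Krt19 and Krt23 also fell in some preserved states. They were removed by the filter in all 12 state comparisons, and a fit without it, an alternative to the fit used above, covered them. In that fit Krt19 was lower than frozen by 1.38 ± 0.39 (SE) on the log2 scale in 3-month formalin (edgeR adjusted p = 0.0045), with all 12 animals below their frozen portion, and by 1.00 ± 0.36 in catalyst PureLink portions (edgeR adjusted p = 0.033). Krt19 had 113 counts over the 12 frozen libraries and 24 over the 12 of 3-month formalin. Krt23 was lower by 1.09 ± 0.37 in TAE-heated, 1.20 ± 0.38 in heat-only and 1.16 ± 0.37 in catalyst PureLink portions (edgeR adjusted p of 0.022, 0.015 and 0.014). Genes called lower without the filter made up 18% in 3-month formalin, 14.1% in TAE-heated, 13.3% in heat-only and 13.9% in catalyst PureLink portions. Krt7 passed in 0 of the 7 comparisons with frozen in that fit. The genes most like Krt7 over animals were Mrc1, Snx33 and Il16 (r = 0.87, 0.86 and 0.85), those most like Krt19 were Pde10a, 9930120I10Rik and Tctex1d2 (r = 0.85, 0.84 and 0.84), and those most like Krt23 were Ednrb, Fam120aos and Maob (r = 0.95, 0.94 and 0.94), of which the last 3 fell to 0.78, 0.64 and 0.79 without animals 21C and 20D.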

How the data were processed

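RNA of 96 liver portions from 12 mice was measured by sequencing. The authors deposited raw counts per Ensembl gene, as whole numbers without normalization, and a second deposited table of normalized values was not used here. Per the submitters' processing notes the tools were CASAVA, STAR 2.5 and edgeR, with the builds GRCm38 and mm10. No source used here gives the counting tool or how it treated strands. Of 47465 lines 92 were spike-in controls and were left out. Of 47373 genes 46954 matched GENCODE M21, which gave symbols, coordinates and exon lengths. Groups and animals came from the sample titles.

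Tests over all genes were quasi-likelihood F tests of edgeR 4.0.16 in R 4.3.3, with TMM factors, genes kept by the tool's own filter for each comparison, and Benjamini-Hochberg adjustment with a limit of 0.05. The SE was derived from the F statistic. Phenobarbital was compared within states, 6 against 6. States were compared with treatment as covariate, and interactions were fitted over both states. The ratio of Krt8 to Krt18 was tested over animals after adding 0.5 counts. Counting intervals are exact at 95%. The p-values of phenobarbital within a state measure the spread between animals. State and interaction fits without the block treated libraries of the same animal as independent. The p-values of the block fits and of the ratio measure the spread of differences within animals. The edgeR fits without a block were tried in some of the comparisons on simulated libraries that held no animal effect. The block fits and the permutation test of the ratio were not tried in this way. The members and the gene lists were chosen with earlier results of these data known. Named beside the members were, by rule, Cyp2b10, from each list up to 3 called genes by p and up to 2 uncalled genes by level in frozen liver, and the 3 genes most like each member among those with a mean of at least 1 CPM. Krt79 and Krt78 were named outside this rule after their values were seen. One gene that the rule names is not reported here.

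Each animal gave a library to every state, as its titles show, so libraries are paired by animal between states. Same-animal libraries deviated together in 336 of 336 pairs at a correlation over 0.1, with a median of 0.526 across 13546 genes. Between different animals of the same treatment in different states 239 of 1680 pairs exceeded 0.1, and the median was -0.0931. Alternatives were DESeq2 1.42.0, voom of limma 3.58.1, no filter, library totals with RLE factors or with none, counts thinned to the smallest total, the animal as replicate block, each animal left out in turn for phenobarbital, and another pseudocount for the ratio. Leaving out the shallowest library was added after seeing the data. No 2 libraries held identical counts.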

Additional observations from a re-analysis of the deposited data

Results flagged for a closer look

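Among 112 groups of 6 libraries (7 members, 8 states, 2 treatments), 10 held a library whose gap to the next one exceeded Dixon's critical value for 6 samples. For normally distributed values about 1 in 20 groups would exceed it. All 10 concern Krt7, Krt19 and Krt23, which had at most 31 counts in any library, so this rate need not hold for them. For Krt7 the highest library was control 21C at 2.01 CPM in 18-hour formalin, control 82B at 1.39 CPM in TAE-heated RNA and treated animal 20D at 0.989 CPM in catalyst PureLink portions. For Krt19 the highest was control 21C at 1.07 CPM in 18-hour formalin, control 82B at 2.54 CPM in TAE-heated RNA and control 8D at 0.888 CPM in catalyst PureLink portions, and the lowest was control 8C at 0.276 CPM in frozen liver. For Krt23 the highest was control 21C at 1.47 CPM in frozen and 0.692 CPM in heat-only portions, and treated animal 20D at 0.659 CPM in catalyst PureLink portions. The high libraries of control 21C in 18-hour formalin and of control 82B in TAE-heated RNA were high for both Krt7 and Krt19.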

How the results depend on the processing

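The number of members called with phenobarbital moved most after thinning to the shallowest library, which left 1 call of 3 in frozen, 1 of 4 in 18-hour formalin and 1 of 2 in catalyst PureLink portions, and 0 in ethanol (of 2), 3-month formalin (of 2), TAE-heated (of 1), heat-only (of 1) and catalyst AllPrep portions (of 2); thinning leaves fewer counts. With limma voom 1 member was called in ethanol, 18-hour formalin, catalyst AllPrep and catalyst PureLink portions, with RLE scaling 1 in catalyst PureLink, without the filter 1 in 3-month formalin, and with DESeq2 2 in TAE-heated portions. In frozen portions Prom1 was also called with DESeq2, without the filter, with RLE scaling and with library totals alone, and not with voom. Without 1 animal the count ran from 1 to 4 in frozen, 18-hour formalin and catalyst PureLink, from 1 to 2 in ethanol, 3-month formalin and TAE-heated, and from 2 to 3 in catalyst AllPrep portions. Between ethanol and frozen the 1 call became 0 without the filter, with library totals alone and after thinning, and 2 with the animal as replicate block. The replicate block also gave 1 call in place of 0 between catalyst AllPrep and heat-only portions, and it ended no call. Without the filter 4 members in place of 2 were lower in catalyst PureLink than in frozen portions, since Krt19 and Krt23 then entered. The sign of Prom1, which passed in no state comparison, turned for heat-only against frozen with DESeq2 (0.038) and library totals (0.24), for catalyst AllPrep against frozen with voom (0.084), library totals (0.15) and the block (0.017), for catalyst PureLink against frozen without the filter (-0.017) and with RLE scaling (-0.0046), for catalyst AllPrep against heat-only with voom (0.058) and the block (0.026), and for its interaction in 3-month formalin with DESeq2 (-0.047). The sign also turned for Krt4, TAE-heated versus 3-month formalin, with voom (-0.00825). With library totals alone Krt4 was called higher than in 3-month formalin in catalyst AllPrep (0.65) and catalyst PureLink portions (0.61). Other causes of these shifts were not tested. Leaving out the shallowest library, chosen after seeing the data, changed no call of a member, and another pseudocount changed no call of the ratio.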
